A study of Mus musculus with 24 samples.

Results

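Klhl33, Elfn1, Kcne4, Neu3, Gdpd5, Nxph3, Galnt15 and Mfsd2a are 8 of the 49172 mouse genes to which transcripts were summed, and were chosen because earlier results of these data showed them strongly higher in the libraries labelled LPA and in those given both agents. The values that chose them are the differences of those 2 kinds of library from vehicle, so these differences are given below as a description with no test. The measurements come from RNA sequencing of Ocy454 cells, an established mouse osteocytic line, after treatment with both lysophosphatidic acid (LPA) and 1,25-dihydroxyvitamin D (1,25D), with LPA as labelled, with 1,25D as labelled, or with vehicle, for 8 h or 2 h. Each of the 8 groups held 3 libraries, 24 in all, and n = 3 for every mean. The study asked how the agents affect FGF23 synthesis and which pathways they engage. All libraries came from 1 cell line, and no source used here gives a dose. Nothing in the labels tells whether replicate libraries came from separate cultures, and each p-value below therefore reflects library-to-library spread, which may be technical. In bulk RNA, fewer cells that express a gene and less of its RNA per cell cannot be told apart.

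LPA is a lysophospholipid that acts through G protein-coupled receptors, and 1,25D is the active vitamin D hormone, which binds the vitamin D receptor, a nuclear receptor that regulates genes together with RXR. The 8 genes encode proteins of different kinds. Elfn1 is a leucine-rich repeat membrane protein best known from synapses onto interneurons, where it recruits metabotropic glutamate receptors across the cleft, and Nxph3 is a neurexophilin, a secreted ligand of alpha-neurexins. Kcne4 is an accessory subunit that damps voltage-gated potassium channels, and Mfsd2a is a sodium-dependent transporter of lysophosphatidylcholine known from the blood-brain barrier. Gdpd5 is a membrane glycerophosphodiesterase, Neu3 is the plasma membrane sialidase that acts on gangliosides, and Galnt15 belongs to the enzymes that begin mucin-type O-glycosylation. Klhl33 belongs to the kelch-like family, many of whose members are substrate adaptors of cullin 3 ubiquitin ligases.

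Libraries held 32.96 to 33.84 M estimated counts. Cyp24a1, the vitamin D 24-hydroxylase gene, which the vitamin D receptor is known to induce directly, went against the treatment labels. It had 87 counts over the 3 libraries given both agents for 8 h, 102 over those labelled LPA, 1 over those labelled 1,25D and 1 over vehicle. The names of the deposited tables also carry the letters of the 2 single treatments the other way round from the labels. For this reason a single treatment is named only by its label (LPA-labelled, 1,25D-labelled), and each direction drawn for these libraries carries this reservation. Of the osteocyte markers, Sost, Phex, Mepe, Fgf23 and Dkk1 were below 1 TPM in every library, while summed osteocyte markers lay between 183 and 391 TPM. The highest in that sum were Cd44, Gja1, Pdpn and Fbln7, with medians of 72.0, 71.0, 57.8 and 44.1 TPM. Dmp1 had 0.757 to 1.795 TPM. Summed adipocyte markers did not exceed 1.18 TPM in any library, and summed neuron markers lay between 2.59 and 7.03 TPM, with Rbfox3, Snap25, Syt1 and Gad1 below 1 TPM in every library. Summed osteoblast markers moved with the treatments at 8 h, at 4127 to 4520 TPM with both agents, 3025 to 3535 TPM in LPA-labelled libraries, 2044 to 2087 TPM in 1,25D-labelled libraries and 703 to 1669 TPM in vehicle, and their part in the results was not tested. Of 8 tested osteoblast markers, Spp1, at 196 to 3459 TPM over all libraries, was the 1 that was higher with both agents at 8 h, while Alpl fell by 0.92 on the log2 scale (SE 0.26) and Runx2 fell by 0.61 (SE 0.18), and the median log2 fold change of the 8 was -0.31. Over all 24 libraries, the first principal component of the differences within groups held 15.6% of the variance within groups. At 8 h vehicle replicate 2 scored 41.3 on it and both-agents replicate 2 scored 35.1, against a score of -22.1 for replicate 2 labelled LPA. Replicate 3 of the same 2 groups lay at the other end, at -27.3 in vehicle and -25.2 with both agents. Vehicle replicate 2 also had the highest share of mitochondrial counts of all libraries, 16.85%. In 8 h vehicle libraries, replicate 2 was the lowest for 6 of the 8 genes. With both agents, replicate 2 was the lowest for 5, and among libraries labelled LPA replicate 2 was the highest for 6. Tested results at 8 h are given with and without vehicle replicate 2 and both-agents replicate 2 where a call changes. Without these 2 libraries the 8 h log2 fold changes against vehicle of the 8 genes ran from 1.03 to 5.98 with both agents and from 1.41 to 6.49 in LPA-labelled libraries.

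The 8 genes were chosen for a shared pattern, and their levels at 8 h are described first. All 8 had higher TPM in each of the 6 libraries given both agents or labelled LPA than in each of the 6 libraries labelled 1,25D or given vehicle. The share of all genes with this separation was not counted at either time, and the shares past the threshold given here are a different measure. Nothing is therefore read from the number of the 8 genes that were separate. Across all 16424 genes tested, 16.8% passed the threshold for both agents against vehicle at 8 h and 12.0% for LPA-labelled against vehicle, and nothing is read from these shares for genes chosen on the same differences. The 8 genes had a median log2 fold change of 2.85 for both agents and 2.66 for LPA-labelled libraries at 8 h, beside medians of 0.03 and 0.00 over all genes tested. Only 3 of the 8 (Klhl33, Kcne4 and Gdpd5) showed the same separation of all libraries in TPM at 2 h. Neu3 was also separate at 2 h in CPM. Its CPM was 4.21 to 5.28 with both agents and 7.91 to 10.58 labelled LPA. It was 2.368 to 2.545 labelled 1,25D and 3.836 to 4.108 in vehicle. Of all genes at 2 h, 19.9% passed the threshold for both agents and 0.785% for LPA-labelled against vehicle.

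**Figure D1:**
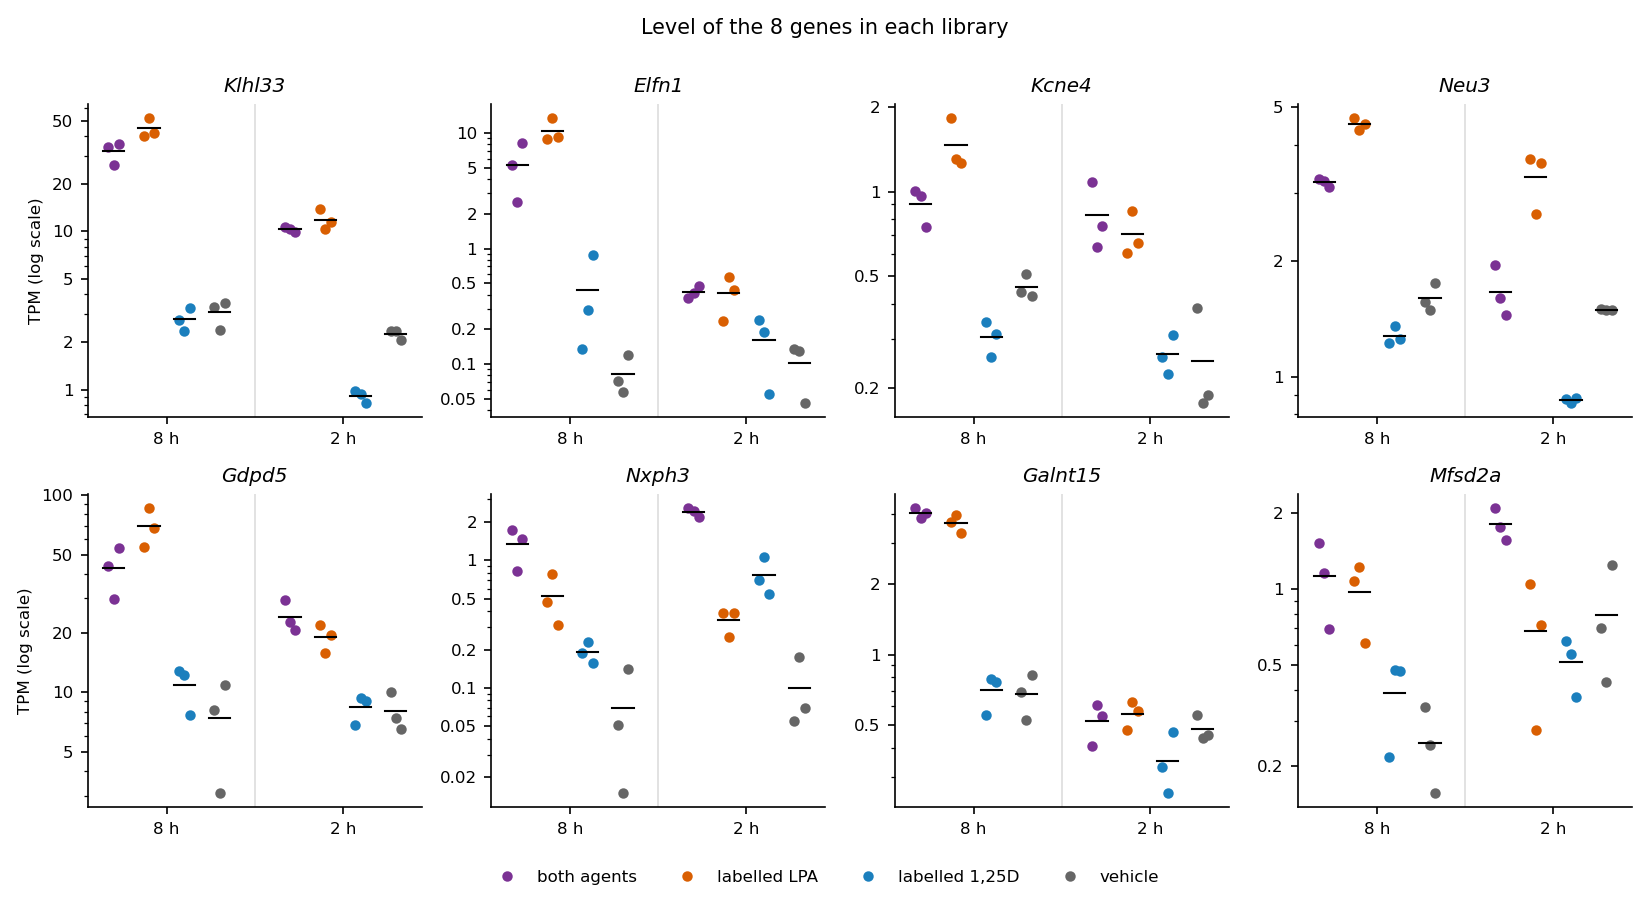
Level of each of the 8 genes in TPM (log scale, a scale per panel) in each library (points), with the mean of the 3 libraries of a group as a bar, for 8 h at the left and 2 h at the right of each panel. At 8 h the both-agents and LPA-labelled points lie above all vehicle and 1,25D-labelled points for all 8 genes, and at 2 h for 3 of them.

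Klhl33 (ENSMUSG00000090799, chromosome 14) was one of the 2 most abundant of the 8 genes after treatment. At 8 h it stood at 34.1, 26.2 and 35.7 TPM with both agents, 40.2, 51.9 and 42.1 TPM in libraries labelled LPA, 2.74, 2.36 and 3.27 TPM in those labelled 1,25D, and 3.31, 2.40 and 3.55 TPM in vehicle. At 2 h the values were 10.7, 10.3 and 9.87 TPM with both agents, 13.8, 10.4 and 11.4 TPM labelled LPA, 0.987, 0.936 and 0.821 TPM labelled 1,25D, and 2.34, 2.36 and 2.07 TPM in vehicle. The LPA-labelled range lay above the both-agents range at 8 h, and the 2 overlapped in TPM at 2 h. On the CPM scale, LPA-labelled libraries (23.13 to 24.66) lay above both agents (20.33 to 22.58) at 2 h too. The 1,25D-labelled libraries formed a separate lowest level at 2 h but mixed with vehicle at 8 h. The log2 fold changes were 3.56 ± 0.13 for both agents and 3.89 ± 0.13 for LPA-labelled libraries at 8 h, and 2.22 ± 0.12 and 2.39 ± 0.12 at 2 h (± SE, on the scale of edgeR's fitted counts, as for all fold changes here). Klhl33 was therefore already high at 2 h, and the difference from vehicle was larger by 1.34 ± 0.17 with both agents and by 1.50 ± 0.17 in LPA-labelled libraries at 8 h.

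Elfn1 (ENSMUSG00000048988, chromosome 5) showed the largest fold changes of the 8 at 8 h and was near absent from vehicle. At 8 h it had 5.26, 2.53 and 8.12 TPM with both agents, 8.83, 13.4 and 9.21 TPM in libraries labelled LPA, 0.135, 0.295 and 0.876 TPM in those labelled 1,25D, and 0.071, 0.057 and 0.121 TPM in vehicle. Its values at 2 h were 0.377, 0.411 and 0.475 TPM with both agents, 0.238, 0.567 and 0.436 TPM labelled LPA, 0.243, 0.191 and 0.055 TPM labelled 1,25D, and 0.135, 0.129 and 0.046 TPM in vehicle. The 4 groups ran in separate order at 8 h, LPA-labelled above both agents above 1,25D-labelled above vehicle. At 2 h the LPA-labelled TPM range overlapped both the both-agents and the 1,25D-labelled ranges. In CPM, both agents (1.183 to 1.602) lay above LPA-labelled libraries (0.7517 to 1.061) at 2 h. A processed transcript of 413 bases, ENSMUST00000198608, held up to 48.93% of Elfn1 TPM in an LPA-labelled library of 2 h, on 3 counts over the group. It held up to 51.53% in a 1,25D-labelled library of 8 h, also on 3 counts over the group. At 8 h the 1,25D-labelled libraries (0.447 to 1.428 CPM) lay above vehicle (0.2172 to 0.3633 CPM) in CPM as well. The 3 vehicle libraries at 8 h held 28 Elfn1 counts together, against 1557 with both agents and 2885 in LPA-labelled libraries. The log2 fold change at 8 h was 5.84 ± 0.42 for both agents and 6.64 ± 0.42 for LPA-labelled libraries, a ratio of 57.1 and 99.9, and it was 2.11 ± 0.47 and 1.57 ± 0.49 at 2 h. Of the 8 genes Elfn1 had the largest excess of the 8 h difference over the 2 h difference, 3.73 ± 0.71 for both agents and 5.08 ± 0.73 for LPA-labelled libraries.

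Nxph3 (ENSMUSG00000046719, chromosome 11) differed from Elfn1 in its timing and in its order of treatments. With both agents it had 1.74, 0.820 and 1.47 TPM at 8 h, against 0.468, 0.787 and 0.313 TPM in libraries labelled LPA, 0.189, 0.228 and 0.158 TPM in those labelled 1,25D, and 0.051, 0.015 and 0.142 TPM in vehicle. At 2 h it had 2.56, 2.44 and 2.19 TPM with both agents, 0.384, 0.251 and 0.389 TPM labelled LPA, 0.705, 1.05 and 0.541 TPM labelled 1,25D, and 0.055, 0.176 and 0.070 TPM in vehicle. Both agents together gave the highest level at either time with no overlap, and at 2 h the 1,25D-labelled libraries lay above those labelled LPA, whereas in the other 7 genes the LPA-labelled mean was the higher. The log2 fold change against vehicle was 4.34 ± 0.47 for both agents and 2.80 ± 0.49 for LPA-labelled libraries at 8 h, and 4.62 ± 0.45 and 1.84 ± 0.48 at 2 h. With both agents the 8 h difference exceeded the 2 h difference by -0.28 ± 0.74, a value within its SE of 0. Vehicle libraries held 12 Nxph3 counts in all at 8 h and 17 at 2 h, and fold changes against them are accordingly imprecise.

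Kcne4 (ENSMUSG00000047330, chromosome 1) was low in all groups, at 1.82 TPM or less, and its difference from vehicle was not larger at 8 h. It had 1.00, 0.964 and 0.749 TPM with both agents at 8 h, 1.82, 1.30 and 1.27 TPM labelled LPA, 0.343, 0.258 and 0.311 TPM labelled 1,25D, and 0.440, 0.510 and 0.427 TPM in vehicle. At 2 h it had 1.08, 0.635 and 0.752 TPM with both agents, 0.607, 0.854 and 0.655 TPM labelled LPA, 0.258, 0.225 and 0.308 TPM labelled 1,25D, and 0.386, 0.177 and 0.189 TPM in vehicle. All 4 levels were separate at 8 h, and at 2 h only the upper pair of groups was separate from the lower pair. Against vehicle, the log2 fold change was 1.04 ± 0.26 for both agents and 1.56 ± 0.26 for LPA-labelled libraries at 8 h, and 1.90 ± 0.28 and 1.73 ± 0.28 at 2 h.

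Mfsd2a (ENSMUSG00000028655, chromosome 4) had the lowest mean CPM of the 8. It had 1.52, 1.16 and 0.695 TPM with both agents at 8 h, 1.08, 1.22 and 0.610 TPM labelled LPA, 0.217, 0.479 and 0.473 TPM labelled 1,25D, and 0.341, 0.241 and 0.156 TPM in vehicle. At 2 h it had 2.09, 1.77 and 1.57 TPM with both agents, 1.04, 0.277 and 0.723 TPM labelled LPA, 0.621, 0.553 and 0.374 TPM labelled 1,25D, and 0.703, 0.428 and 1.25 TPM in vehicle. Only the both-agents group stood apart at 2 h, and the LPA-labelled, 1,25D-labelled and vehicle ranges overlapped. Log2 fold changes against vehicle were 1.83 ± 0.40 for both agents and 2.25 ± 0.39 for LPA-labelled libraries at 8 h, and 1.51 ± 0.35 and 0.32 ± 0.36 at 2 h.

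Gdpd5 (ENSMUSG00000035314, chromosome 7) was the most abundant of the 8 genes in every group. It had 43.8, 29.8 and 54.1 TPM with both agents at 8 h, 54.5, 85.8 and 68.1 TPM labelled LPA, 12.9, 12.3 and 7.65 TPM labelled 1,25D, and 8.17, 3.09 and 10.9 TPM in vehicle. At 2 h it had 29.3, 22.7 and 20.7 TPM with both agents, 21.9, 15.8 and 19.5 TPM labelled LPA, 6.84, 9.42 and 9.08 TPM labelled 1,25D, and 10.1, 7.43 and 6.54 TPM in vehicle. In TPM, the LPA-labelled libraries were highest at 8 h with no overlap with both agents, while at 2 h those 2 groups overlapped. Vehicle and 1,25D-labelled TPM ranges overlapped at both times. In CPM, the 1,25D-labelled libraries of 8 h (20.93 to 24.32) lay above vehicle (6.3 to 16.43). At 2 h both agents (37.45 to 44.37 CPM) lay above LPA-labelled libraries (28.67 to 36.98 CPM). In the fit, the log2 fold change was 2.81 ± 0.26 for both agents and 3.30 ± 0.27 for LPA-labelled libraries at 8 h, and 1.63 ± 0.26 and 1.30 ± 0.25 at 2 h.

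Neu3 (ENSMUSG00000035239, chromosome 7) lies on the same chromosome as Gdpd5, with 7 protein-coding genes between them in the annotation. It had 3.25, 3.23 and 3.11 TPM with both agents at 8 h, 4.68, 4.36 and 4.52 TPM labelled LPA, 1.22, 1.35 and 1.26 TPM labelled 1,25D, and 1.56, 1.49 and 1.76 TPM in vehicle. At 2 h it had 1.95, 1.60 and 1.45 TPM with both agents, 3.67, 2.64 and 3.59 TPM labelled LPA, 0.878, 0.855 and 0.882 TPM labelled 1,25D, and 1.50, 1.49 and 1.49 TPM in vehicle. All 4 groups were separate at 8 h, and at 2 h the both-agents TPM range included the vehicle values. Both agents (4.21 to 5.28 CPM) lay above vehicle (3.836 to 4.108 CPM) at 2 h on the CPM scale. Relative to vehicle, the log2 fold change was 1.06 ± 0.12 for both agents and 1.39 ± 0.12 for LPA-labelled libraries at 8 h, and 0.23 ± 0.13 and 1.25 ± 0.12 at 2 h. In LPA-labelled libraries the 8 h difference exceeded the 2 h difference by 0.13 ± 0.17, a difference smaller than its SE, and with both agents by 0.83 ± 0.17.

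Galnt15 (ENSMUSG00000021903, chromosome 14) was above every vehicle library at 8 h in both treatments and overlapped vehicle in both at 2 h. It had 4.24, 3.85 and 4.04 TPM with both agents at 8 h, 3.71, 3.96 and 3.31 TPM labelled LPA, 0.554, 0.789 and 0.767 TPM labelled 1,25D, and 0.689, 0.525 and 0.816 TPM in vehicle. Its values at 2 h were 0.407, 0.606 and 0.544 TPM with both agents, 0.474, 0.625 and 0.575 TPM labelled LPA, 0.330, 0.255 and 0.465 TPM labelled 1,25D, and 0.549, 0.439 and 0.452 TPM in vehicle. Libraries of the upper pair of groups overlapped each other in TPM at 8 h, as did those of the lower pair. At 2 h the both-agents, LPA-labelled and vehicle ranges overlapped. In CPM, both agents (20.9 to 22.82) lay above LPA-labelled libraries (16.34 to 18.01) at 8 h. The fitted log2 fold change was 2.89 ± 0.14 for both agents and 2.52 ± 0.14 for LPA-labelled libraries at 8 h, and -0.03 ± 0.15 and 0.15 ± 0.15 at 2 h.

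**Figure D2:**
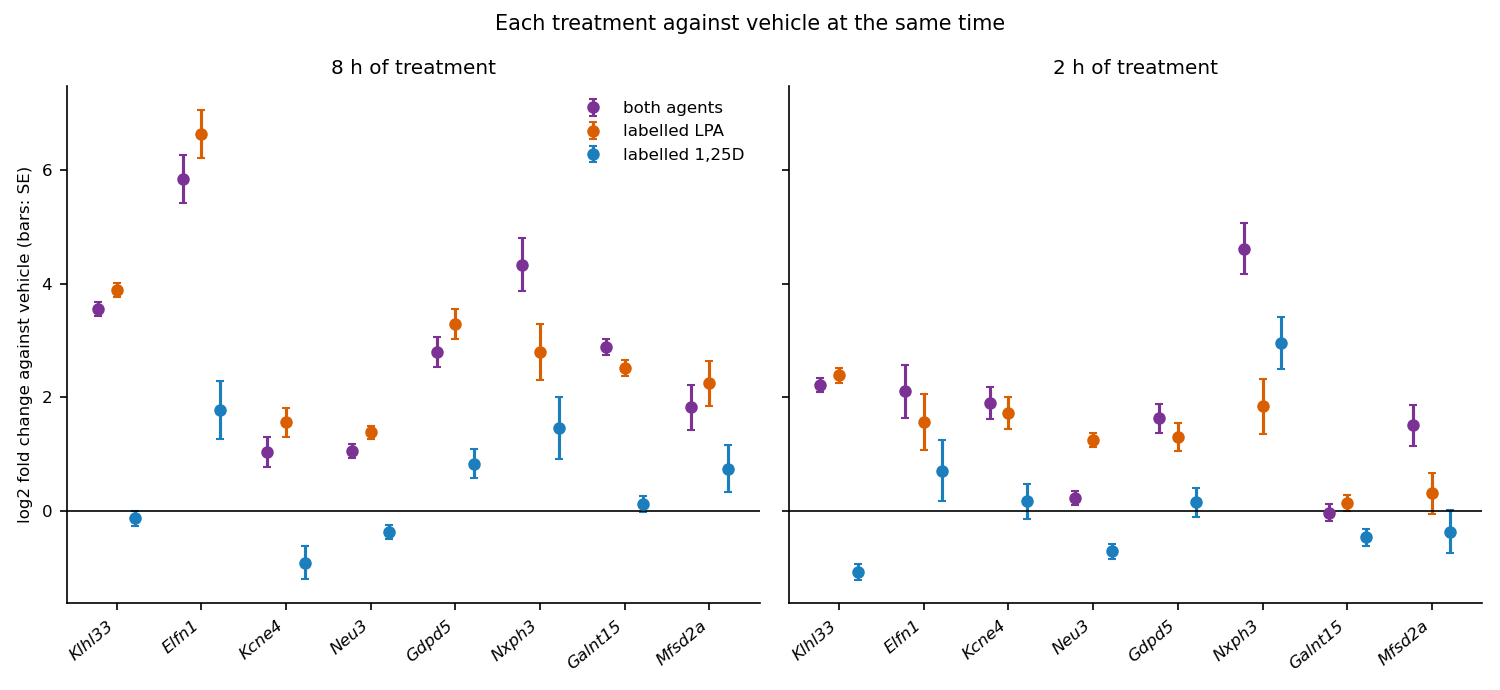
Log2 fold change of each gene against vehicle of the same time (points, bars: SE) for both agents, LPA-labelled and 1,25D-labelled libraries, with 8 h at the left and 2 h at the right. With both agents Elfn1 is at 5.84 at 8 h and 2.11 at 2 h, Galnt15 at 2.89 and -0.03, and Nxph3 at 4.34 and 4.62, and the 1,25D-labelled points lie on both sides of 0.

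The windows before the start sites of Klhl33, Elfn1 and Galnt15 are shown because these 3 genes had the largest excess of the 8 h over the 2 h difference from vehicle with both agents. They are the 250 bases before the RefSeq start site (GRCm38.p6), 5′ to 3′ on the gene's strand, with capitals for matches to a nuclear receptor hexamer or an AP-1 site.
Klhl33, first start site, minus strand, chr14:50897484-50897733: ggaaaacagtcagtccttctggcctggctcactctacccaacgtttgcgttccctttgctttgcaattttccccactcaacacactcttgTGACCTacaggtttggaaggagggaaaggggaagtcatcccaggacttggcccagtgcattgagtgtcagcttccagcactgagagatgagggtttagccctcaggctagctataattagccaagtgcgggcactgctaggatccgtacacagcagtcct
Elfn1, plus strand, chr5:139907616-139907865: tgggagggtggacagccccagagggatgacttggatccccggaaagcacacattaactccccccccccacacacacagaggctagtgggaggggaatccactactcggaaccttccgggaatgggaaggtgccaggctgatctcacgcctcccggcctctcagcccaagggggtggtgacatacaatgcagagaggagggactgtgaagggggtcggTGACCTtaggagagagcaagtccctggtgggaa
Galnt15, plus strand, chr14:32028853-32029102: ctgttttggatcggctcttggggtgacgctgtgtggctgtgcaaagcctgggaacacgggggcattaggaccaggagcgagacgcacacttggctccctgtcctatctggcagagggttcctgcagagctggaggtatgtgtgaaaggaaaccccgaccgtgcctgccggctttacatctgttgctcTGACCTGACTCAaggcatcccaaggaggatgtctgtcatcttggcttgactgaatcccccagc
RefSeq windows were matched for 6 of the 8 genes, 7 windows in all because Klhl33 has 2 start sites, and the Gdpd5 and Nxph3 windows are not used here. The hexamers searched were the consensus AGGTCA, the variant AGTTCA, the variant GGGTCA and the variant GGTTCA, on both strands, and 6 of the 7 windows held at least 1, compared with 38.6% of 32851 windows of the same length. In Klhl33 the match is AGGTCA on the opposite strand at bases 160 to 155 before the start, in Elfn1 AGGTCA on the opposite strand at bases 33 to 28, and in Galnt15 AGGTCA on the opposite strand at bases 63 to 58. The Galnt15 match shares 1 base with an AP-1 match (TGANTCA, the only one in the 7 windows), a motif that 6.75% of windows hold. No window of the 8 genes held a pair of these hexamers in direct repeat with 3 bases between, the arrangement the vitamin D receptor is known to bind with RXR, which 0.0396% of windows hold, or the CRE TGACGTCA, which 1.55% hold. These matches describe letters in the windows only.

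Comparisons other than those that chose the genes were tested with edgeR's quasi-likelihood F test. The p-values were adjusted by Benjamini-Hochberg over all 16424 genes, and a gene past an adjusted p of 0.05 is called. Each of these comparisons uses libraries that also entered the choice of the 8 genes, so none is independent of that choice. Libraries labelled 1,25D were first compared with vehicle, which shows what the other agent as labelled did alone. At 2 h 4 of the 8 genes were called, 3 lower and 1 higher, where 13.9% of all genes were called. Klhl33 fell by 1.07 on the log2 scale (SE 0.14, adjusted p = 1.57e-05), Neu3 fell by 0.71 (SE 0.13, adjusted p = 0.000651) and Galnt15 fell by 0.46 (SE 0.15, adjusted p = 0.0491). Nxph3 rose by 2.96 ± 0.46 (adjusted p = 9.35e-05), a ratio of 7.80. The Klhl33, Neu3 and Nxph3 libraries did not overlap between the 2 groups. For Galnt15, 1 library labelled 1,25D lay within the vehicle range in TPM. Its CPM ranges were separate, at 1.396 to 1.809 labelled 1,25D and 1.882 to 2.501 in vehicle. Galnt15 lost its call when any of 5 of the 6 libraries was left out. Klhl33 lost it when protein-coding transcripts alone were counted (-0.76 ± 0.30, adjusted p = 0.0979). Elfn1, Kcne4, Gdpd5 and Mfsd2a had log2 fold changes of 0.71 ± 0.54, 0.17 ± 0.30, 0.16 ± 0.26 and -0.36 ± 0.37 and were not called.

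At 8 h the 1,25D-labelled libraries differed from vehicle in 3 of the 8 genes, where 16.2% of all genes were called. Elfn1 rose by 1.78 ± 0.51 (adjusted p = 0.0195) and Gdpd5 by 0.83 ± 0.26 (adjusted p = 0.0300), while Kcne4 fell by 0.90 (SE 0.28, adjusted p = 0.0336). The vehicle libraries of this comparison also entered the choice of the 8 genes. Elfn1 kept the call without the 2 libraries that stood apart at 8 h (1.65 ± 0.50, adjusted p = 0.0356), but lost it without vehicle replicate 1, vehicle replicate 2 or 1,25D-labelled replicate 3, the library that held the highest Elfn1 level of its group (adjusted p up to 0.132). Gdpd5 was at 0.52 ± 0.18 (adjusted p = 0.0686) and Kcne4 at -0.74 ± 0.32 (adjusted p = 0.152) without those 2 libraries, so the count of called genes was then 1. Of the 6 fits that left out a library, the Gdpd5 call was kept in 2, those without vehicle replicate 1 or 3, and the Kcne4 call in 1, that without vehicle replicate 3 (adjusted p up to 0.158 and 0.166). Nxph3 was higher by 1.46 ± 0.55 and Neu3 lower by 0.37 ± 0.13, with adjusted p-values of 0.0725 and 0.0507. Mfsd2a, at 0.75 ± 0.42, Klhl33, at -0.13 ± 0.13, and Galnt15, at 0.13 ± 0.14, were not called either.

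The second test of the same agent, both agents against LPA-labelled libraries, uses no vehicle library, but the high values of both of its groups entered the choice of the 8 genes. With 18.7% of all genes called at 2 h, 3 of the 8 genes were called. Nxph3 rose by 2.78 ± 0.38 (adjusted p = 1.95e-05) and Mfsd2a by 1.19 ± 0.35 (adjusted p = 0.0189), while Neu3 fell by 1.02 (SE 0.12, adjusted p = 2.74e-06). The libraries of the 2 groups did not overlap for any of these 3 genes. Nxph3 and Neu3 were called in all 6 fits that left out a library, and Mfsd2a in 5 of 6, the exception being the fit without LPA-labelled replicate 2 (0.86, adjusted p = 0.105).

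At 8 h 4 of the 8 genes were called for both agents against LPA-labelled libraries, where 22.9% of all genes were called. Nxph3 rose by 1.54 ± 0.37 (adjusted p = 0.00475) and Galnt15 by 0.37 ± 0.12 (adjusted p = 0.0354), whereas Klhl33 fell by 0.33 (SE 0.11, adjusted p = 0.0325) and Elfn1 fell by 0.81 (SE 0.29, adjusted p = 0.0456). Without the 2 libraries that stood apart the count was 1: Nxph3 stayed called (1.77 ± 0.35, adjusted p = 0.00110), and Galnt15 (0.35 ± 0.14), Klhl33 (-0.20 ± 0.10) and Elfn1 (-0.52 ± 0.26) did not, with adjusted p-values of 0.0857, 0.190 and 0.207. Of the 6 fits that left out a library, all kept the Nxph3 call and 3 kept that of Klhl33, which was lost without LPA-labelled replicate 2 or 3 or both-agents replicate 2 (adjusted p up to 0.231). Galnt15 and Elfn1 were each called in 1 of the 6, that without both-agents replicate 3 (adjusted p otherwise up to 0.127 and 0.264). With the replicate number as a block, Elfn1 was not called either (adjusted p = 0.0509), and with protein-coding transcripts alone neither Klhl33 (adjusted p = 0.228) nor Elfn1 (adjusted p = 0.0539) was. Neu3 was lower by 0.32 ± 0.12 with an adjusted p of 0.0501.

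Nxph3 and Neu3 were called in the same direction at 2 h when the agent labelled 1,25D was given alone and when it was added to the agent labelled LPA. At 2 h the Nxph3 changes were 2.78 beside the LPA-labelled agent and 2.96 alone, and the Neu3 changes were -1.02 and -0.71. The interaction, which is the difference between those 2 changes, was called for none of the 8 genes at 2 h, where 0.0365% of all genes were called and 2 of the 8 had an unadjusted p below 0.05. Those were Klhl33 at 0.90 ± 0.18 (adjusted p = 0.135) and Mfsd2a at 1.55 ± 0.51 (adjusted p = 0.993). DESeq2 called 1 of the 8, Klhl33 (adjusted p = 0.0196), as did the edgeR fits without a filter on low counts (adjusted p = 0.00134) and without the 2 libraries that stood apart (adjusted p = 0.0141). Over all genes those fits called 9, 88 and 7 genes, against 6 in the fit with the filter and all libraries. The missing calls do not show that the changes were equal.

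At 8 h the interaction was called for 2 of the 8 genes, both lower, where 7.68% of all genes were called. Elfn1 had an interaction of -2.59 ± 0.58 (adjusted p = 0.0297) and Gdpd5 of -1.32 ± 0.35 (adjusted p = 0.0404). The agent labelled 1,25D changed Elfn1 by -0.81 ± 0.29 beside the LPA-labelled agent and by 1.78 ± 0.51 alone, and for Gdpd5 the values were -0.49 ± 0.24 (not called) and 0.83 ± 0.26. The both-agents, LPA-labelled and vehicle libraries, which entered the choice of the genes, are part of this term. Neither call remained without vehicle replicate 2 and both-agents replicate 2 of 8 h, when Elfn1 was at -2.17 ± 0.56 (adjusted p = 0.158) and Gdpd5 at -0.79 ± 0.24 (adjusted p = 0.245). Leaving out vehicle replicate 2 alone also ended both calls (adjusted p = 0.0995 and 0.105). Of the 12 fits that left out a library, 6 kept the Elfn1 call and 4 the Gdpd5 call. Over all genes 25 were called without the 2 libraries, and 30 to 4203 with each library left out, against 1262 with all libraries.

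**Figure D3:**
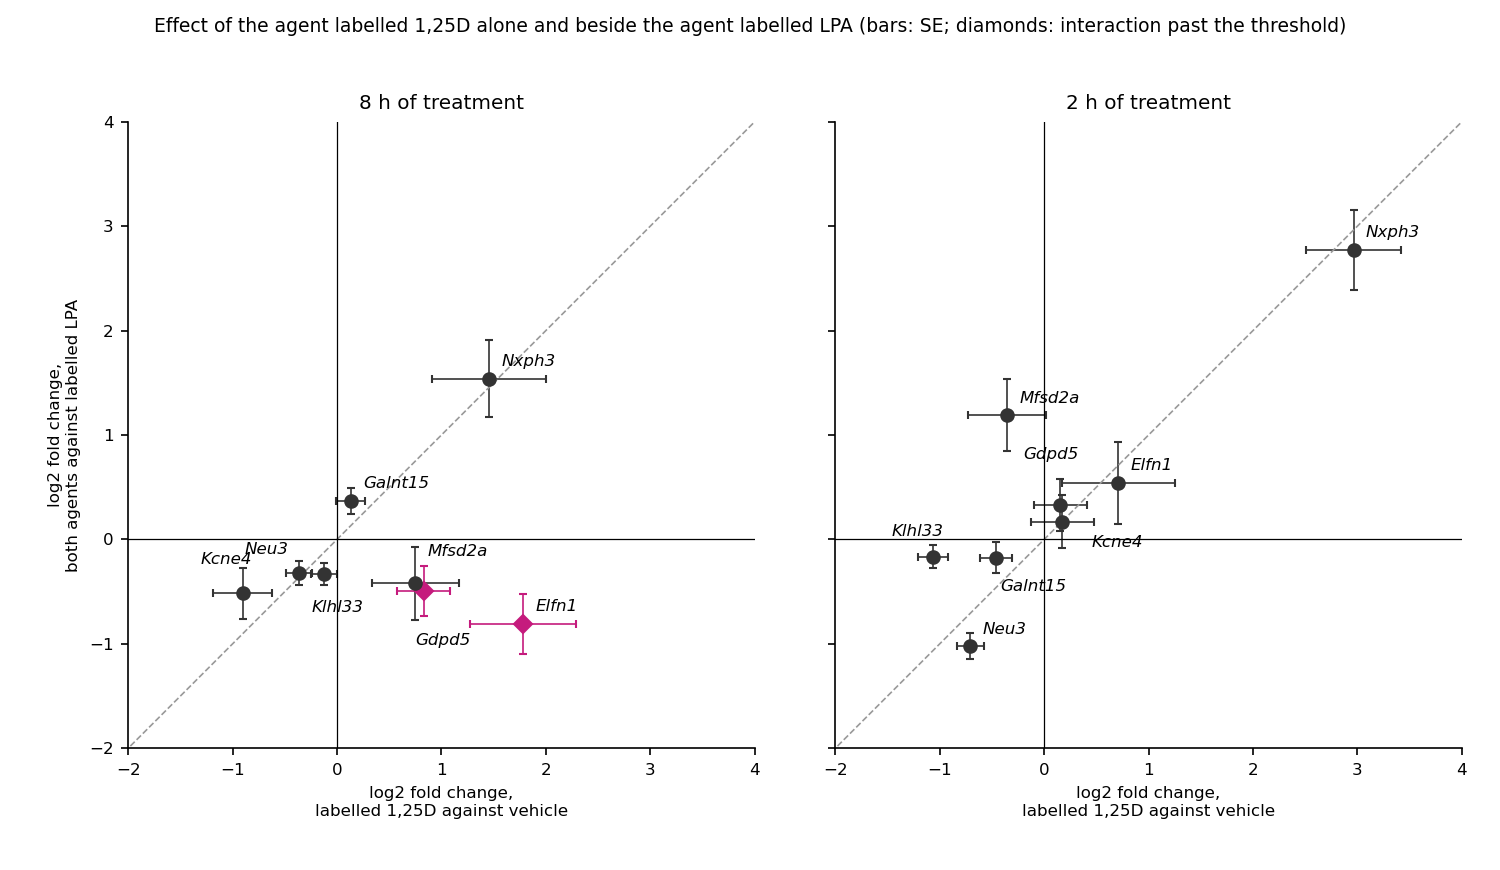
Log2 fold change of both agents against LPA-labelled libraries (vertical) and of 1,25D-labelled libraries against vehicle (horizontal) for the 8 genes, 8 h at the left and 2 h at the right, with SE bars. The dashed line marks equal changes, Nxph3 lies near it at both times, and the 2 diamonds at 8 h, Elfn1 and Gdpd5, are the genes with a called interaction.

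Time itself was tested in vehicle libraries, and 2 of the 8 genes were called between 8 h and 2 h, where 14.6% of all genes were called. The vehicle libraries entered the choice of the 8 genes, and they are also part of the 1,25D-labelled effect over time below. Kcne4 rose by 1.09 ± 0.29 (adjusted p = 0.0125) and Mfsd2a fell by 1.34 (SE 0.40, adjusted p = 0.0276). Vehicle ranges did not overlap for either gene. Leaving out 1 library ended the Kcne4 call in 3 of 6 fits and the Mfsd2a call in 4 of 6. Without the 2 libraries that stood apart Mfsd2a stayed called (-1.72 ± 0.45, adjusted p = 0.0138), Kcne4 did not (0.93 ± 0.33, adjusted p = 0.0674), and Klhl33 was called (0.41 ± 0.12, adjusted p = 0.0261). The change of the 1,25D-labelled effect from 2 h to 8 h was called for Klhl33 alone, 0.94 ± 0.19 (adjusted p = 0.00491), where 4.17% of all genes were called. Klhl33 kept that call in all 12 fits that left out a library and without the 2 libraries that stood apart (0.89 ± 0.17, adjusted p = 0.00297), but not when protein-coding transcripts alone were counted (1.27 ± 0.40, adjusted p = 0.0801).

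Several of the 8 genes were counted over transcripts of different kinds. For Klhl33, a retained-intron transcript (ENSMUST00000226765) held 65.7% of TPM with both agents, 65.0% in libraries labelled LPA, 58.0% in those labelled 1,25D and 81.1% in vehicle at 8 h. The coding transcript ENSMUST00000164415 held 16.7%, 15.8%, 11.5% and 6.38% of Klhl33 TPM in the same order of groups. Counted over protein-coding transcripts alone, the Klhl33 log2 fold change at 8 h was 4.09 ± 0.26 for both agents and 4.45 ± 0.26 for LPA-labelled libraries, larger than with all transcripts. Gdpd5 was spread over 8 transcripts, of which the retained-intron transcript ENSMUST00000208061 held 22.3% with both agents, 23.0% labelled LPA, 14.7% labelled 1,25D and 28.3% in vehicle at 8 h. Galnt15 had 2 coding transcripts, and ENSMUST00000022460 held 81.7% with both agents, 75.8% labelled LPA, 66.1% labelled 1,25D and 51.5% in vehicle at 8 h, on 1893, 1494, 251 and 199 counts. Neu3 and Nxph3 each had 1 transcript. Shares of transcripts that overlap in sequence are estimates of the authors' quantification, and they were not tested. Elfn1, Kcne4 and Galnt15 each overlap an annotated pseudogene or lincRNA on the opposite strand (Gm43704, Gm29536 and Gm49084), none of which passed the filter on low counts.

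**Figure D4:**
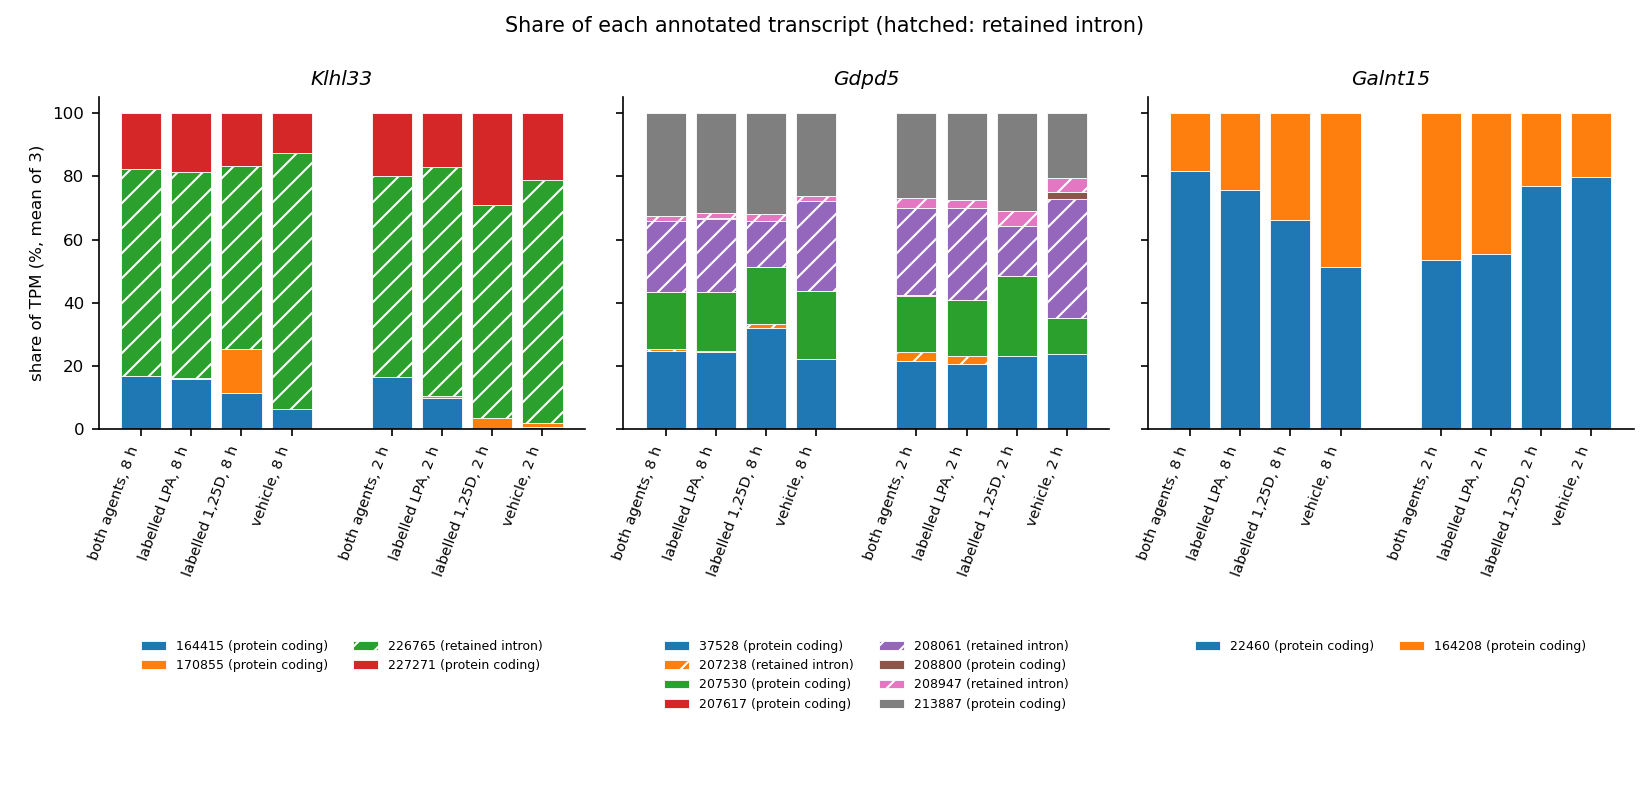
Mean share of each gene's TPM in its annotated transcripts over the 3 libraries of a group, for Klhl33, Gdpd5 and Galnt15, named by the last digits of the Ensembl identifier, with retained-intron transcripts hatched. The retained-intron transcript of Klhl33 holds 65.7% with both agents at 8 h and 81.1% in vehicle, and the Galnt15 transcript ENSMUST00000022460 holds 81.7% and 51.5%.

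Across the 24 libraries the 8 genes varied together to different degrees. Pearson correlations of log2 CPM between pairs of them ran from 0.19 to 0.94 over 28 pairs, with a median of 0.72. Elfn1 and Gdpd5 were closest at 0.94, followed by Klhl33 with Neu3 and with Gdpd5 at 0.92, and Nxph3 with Neu3 was lowest. These values are a description, since the genes were chosen for a shared pattern and the points share libraries and treatment groups. By the rule given in the processing section, the genes most like the mean pattern of the 8 were Osr1 (r = 0.965), a zinc finger transcription factor, Gadd45a (r = 0.959), a stress-induced growth arrest gene, and Npr3 (r = 0.955), the natriuretic peptide clearance receptor. Among those that followed were Adarb1, Pstpip2, Mrgprf, Elovl7, Boc and Inmt, down to r = 0.928. Npr3 averaged 74.2 CPM with both agents, 94.8 CPM labelled LPA, 14.6 CPM labelled 1,25D and 20.9 CPM in vehicle at 8 h. Most like Klhl33 alone were Npr3, Dhrs3 and Gnb5 (r = 0.954, 0.953 and 0.944), and most like Elfn1 alone were Heg1, Dmpk and Krt17 (r = 0.960, 0.957 and 0.957).

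The 3 nearest protein-coding genes on each side of each gene gave 48 neighbours, none of them among the 8, and 39 were tested. For both agents against vehicle at 8 h, 10 of the 39 were higher and 2 lower, with a median log2 fold change of 0.13 beside 0.03 for all genes, of which 16.8% were called. For LPA-labelled libraries at 8 h, 7 were higher and 3 lower, with a median of -0.02 beside 0.00 and 12.0% of all genes called. Beside Mfsd2a, Mycl, a Myc family transcription factor, rose by 1.71 ± 0.47 with both agents and by 2.83 ± 0.45 in LPA-labelled libraries (adjusted p = 0.0125 and 0.000142). Near Gdpd5, Arrb1, which encodes beta-arrestin 1, rose by 0.79 ± 0.08 and by 1.16 ± 0.08 (adjusted p = 1.47e-07 and 5.25e-10), and Klhl35 was at 1.52 ± 0.69 (adjusted p = 0.150) with both agents and rose by 2.22 ± 0.68 (adjusted p = 0.0364) in LPA-labelled libraries. Beside Klhl33, the tRNA-modification gene Osgep rose by 0.62 ± 0.10 and 0.66 ± 0.10, and the base-excision repair nuclease gene Apex1 by 0.96 ± 0.09 and 0.53 ± 0.09, all with adjusted p-values of 0.000344 or less. Next to Kcne4, the secretogranin gene Scg2 fell by 1.21 (SE 0.33) with both agents and fell by 1.13 (SE 0.32) in LPA-labelled libraries (adjusted p = 0.0119 and 0.0254). The other called neighbours at 8 h were Mad1l1, Ankrd28, Dph3, Hacl1, Phb, Slc35b1 and Spop with both agents, and Mad1l1, Tep1, Mogat2 and Wdfy1 in LPA-labelled libraries, with changes between -0.58 and 0.84. No tested neighbour of Neu3 was called at 8 h. At 2 h, 4 neighbours were higher and 5 lower with both agents, and only Apex1 was called in LPA-labelled libraries (0.50 ± 0.09, adjusted p = 0.00611). Without the 2 libraries that stood apart, 8 neighbours were called with both agents and 7 in LPA-labelled libraries at 8 h.

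**Figure D5:**
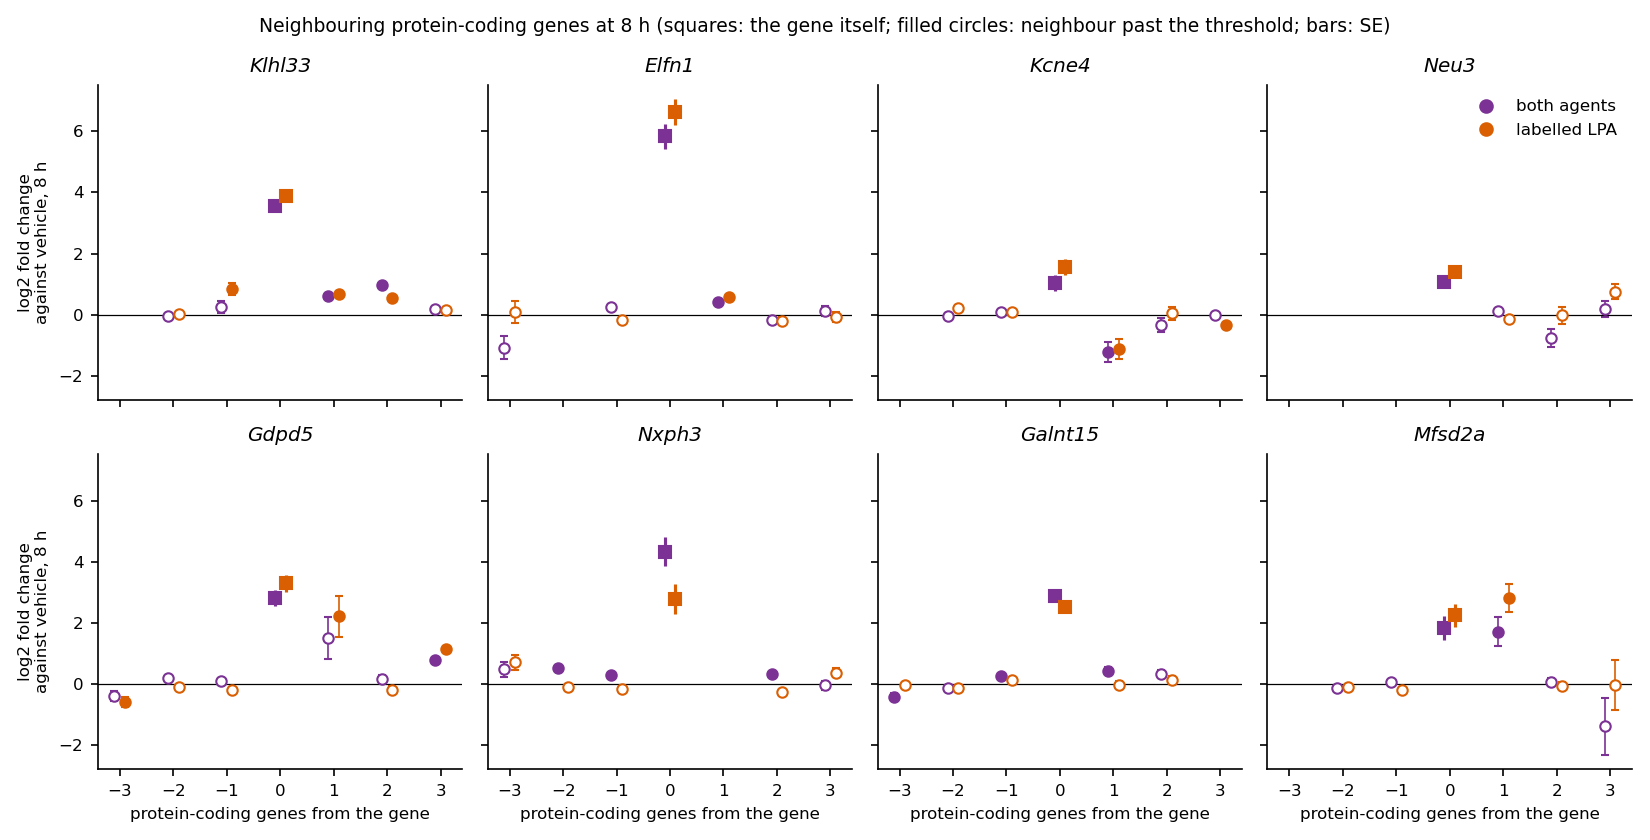
Log2 fold change against vehicle at 8 h (bars: SE) of each of the 8 genes (squares, position 0) and of the tested protein-coding genes up to 3 places before or after it in annotation order. Filled circles passed the threshold; the neighbour nearest in size to its gene is Mycl beside Mfsd2a, at 1.71 with both agents and 2.83 in LPA-labelled libraries.

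Of 7 lists of genes related to the 8 by family or pathway, 5 held both higher and lower genes with both agents at 8 h and 2 held lower genes only. In the same comparisons with vehicle, 16.8% (both agents) and 12.0% (LPA-labelled) of all genes were called at 8 h, and each gene said to have risen or fallen passed the threshold. Of 38 tested kelch-like relatives of Klhl33, 3 were higher and 2 lower with both agents at 8 h, and 7 higher and 2 lower in LPA-labelled libraries, with medians of -0.03 and 0.10. Kbtbd11 rose by 2.62 ± 0.74 and 3.78 ± 0.71 and Klhl30 by 1.25 ± 0.11 and 1.01 ± 0.11, while Enc1 fell by 0.53 (SE 0.07) with both agents. The 11 tested synaptic partners and relatives of Elfn1 and Nxph3 held 0 genes that were higher and 2 that were lower with both agents at 8 h, and 1 higher and 2 lower in LPA-labelled libraries. The 2 lower with both agents were the adhesion genes Flrt2 (-0.71 ± 0.09) and Flrt3 (-0.85 ± 0.26). Only 6 of the 28 listed potassium channel genes passed the filter, and 1 was called with both agents, Kcnh2, the hERG channel gene, lower at -1.09 ± 0.29, while 1 was higher in LPA-labelled libraries.

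Among 25 tested genes of sialidases and ganglioside metabolism, the pathway of Neu3, 5 were higher and 5 lower with both agents at 8 h, and 9 higher and 5 lower in LPA-labelled libraries. The sialyltransferase gene St6galnac4 rose by 1.10 ± 0.06 and 0.86 ± 0.06, and A4galt, the Gb3 synthase gene, rose by 1.08 ± 0.09 and 0.49 ± 0.09. The ganglioside activator gene Gm2a fell by 0.45 (SE 0.09) with both agents and fell by 0.35 (SE 0.09) in LPA-labelled libraries. Of 34 tested genes of glycerophosphodiesterases and lysophospholipid metabolism, to which Gdpd5 and Mfsd2a belong, 3 were higher and 5 lower with both agents at 8 h, and 3 higher and 3 lower in LPA-labelled libraries. The relative Gdpd2 rose by 1.42 ± 0.41 and 1.28 ± 0.41, Gdpd1 rose by 0.38 ± 0.10 with both agents, and Enpp2, which encodes the LPA-producing enzyme autotaxin, fell by 0.45 (SE 0.10) and fell by 0.56 (SE 0.10). Of 15 tested GalNAc transferases and core O-glycosylation genes, 2 were higher and 2 lower with both agents at 8 h and 4 were higher and 0 lower in LPA-labelled libraries, including Gcnt4 (1.17 ± 0.09 and 0.32 ± 0.09) and C1galt1 (0.86 ± 0.17 and 0.89 ± 0.17). Of 28 tested vitamin D receptor targets, 12 were higher and 2 lower with both agents at 8 h, 12 higher and 1 lower in LPA-labelled libraries, and 8 higher and 1 lower in 1,25D-labelled libraries, with medians of 0.53, 0.45 and 0.30. At 2 h, 11 were higher and 1 lower with both agents, and 5 higher and 0 lower in LPA-labelled libraries. In 1,25D-labelled libraries of 2 h, 8 were higher and 1 lower. The medians at 2 h were 0.39, 0.07 and 0.17 in that order. Of all genes, 19.9%, 0.785% and 13.9% were called at 2 h in the same order. For 1,25D-labelled libraries at 8 h the share of all genes called was 16.2%. At 8 h Spp1, the osteopontin gene and also one of the osteoblast markers, rose by 3.83 ± 0.11 and 2.58 ± 0.10 with both agents and in LPA-labelled libraries, and Enpp3, an ectonucleotidase gene, by 3.89 ± 0.12 and 4.09 ± 0.12. The lists were chosen with results of these data known, so their counts describe the genes listed and are no independent evidence of a direction.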

How the data were processed

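Total RNA of 24 Ocy454 libraries was sequenced, per the labels' protocols, after an RNeasy extraction and a DNBSEQ library kit. The authors deposited 1 table per library with unscaled estimated counts for 139145 Ensembl transcripts. The deposited tables also hold TPM, normalised by the authors for length and library total, per the file headers. The submitters' processing notes name mm39 as the build, and no source used here names the tool that estimated the counts. Groups follow the sample titles.

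Transcripts were assigned to genes with GENCODE M21, an older build used only for names and gene order, which matched 135078 transcripts and 99.45 to 99.60% of counts. Estimated counts were summed per gene and rounded, and TPM was summed. All 8 genes passed the filter on low counts. The main fit was edgeR 4.0.16 (R 4.3.3), quasi-likelihood F test, robust, TMM, filterByExpr with a minimum count of 10, all 8 groups in 1 fit with 16 residual degrees of freedom, Benjamini-Hochberg over 16424 genes, threshold 0.05. No 2 libraries of a group were duplicates (lowest chi-square per degree of freedom 7.08), and no column was left unused for want of a sample. Over all libraries, replicate numbers showed no pairing, but pairing among some of the groups was not tested. The script was tested on simulated counts. Promoter windows come from RefSeq (GRCm38.p6).

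The 8 genes and the lists were chosen with earlier results of these data known. Genes named besides the 8 are neighbours past the threshold in the LPA-labelled or both-agents comparison with vehicle, in each list the genes with the smallest p for both agents at 8 h (at most 2 per direction, of which some are printed), and, above 1 CPM on average, the genes whose log2 CPM over 24 libraries correlates best with the mean standardised pattern of the 8 (10 genes), Klhl33 or Elfn1 (3 each); some genes these rules name are not reported here. Alternatives were median-of-ratios scaling, no filter, DESeq2 1.42.0, the compared groups alone, a replicate block and leaving out each library. After seeing the data, 2 more were added: protein-coding transcripts only, and a fit without vehicle replicate 2 and both-agents replicate 2 of 8 h.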

Additional observations from a re-analysis of the deposited data

Results flagged for a closer look

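The effect of the agent labelled 1,25D on Klhl33 differed between times, by 0.94 ± 0.19 on the log2 scale between 8 h and 2 h (adjusted p = 0.00491, edgeR). Klhl33 was lower than vehicle in 3 of 3 libraries at 2 h, while at 8 h the 2 groups overlapped.

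The interaction of the agents at 8 h was -2.59 ± 0.58 for Elfn1 (adjusted p = 0.0297, edgeR). It was -1.32 ± 0.35 for Gdpd5 (adjusted p = 0.0404). Both values include vehicle replicate 2 and both-agents replicate 2 of 8 h, in which Gdpd5 had 3.09 and 29.8 TPM, the lowest of their groups, and the part of these libraries in the calls is shown by the values without them in the report. No formal screen for single outlying libraries was run in groups of 3. The 2 libraries that stood apart were picked after seeing the data, from their scores on the within-group principal component.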

How the results depend on the processing

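No call among the 8 genes changed with median-of-ratios scaling, and the scalings differed by at most 0.0117 in the median of all genes. Counts below are of genes past the threshold, and for each change the cause was not tested. For the 8 genes with 1,25D-labelled against vehicle at 8 h, the count of 3 was 0 with only the compared groups, 1 without the 2 libraries that stood apart, and 0 to 4 when each library was left out. For both agents against LPA-labelled at 8 h, the count of 4 was 2 with only the compared groups, 2 with protein-coding transcripts, 1 without the 2 libraries and 1 to 4 with each left out. For the interaction at 8 h, the count of 2 was 0 with only the compared groups, 0 without the 2 libraries and 0 to 2 with each left out. For the interaction at 2 h, the count of 0 was 1 with DESeq2, 1 without a filter and 1 without the 2 libraries. For vehicle over time, the count of 2 was 0 with only the compared groups and 0 to 1 with each left out. For the 1,25D-labelled effect over time, the count of 1 was 2 without a filter and 0 with protein-coding transcripts. Neighbours with both agents at 8 h numbered 12, and 4 with only the compared groups; those at 2 h numbered 9, and 5 to 9 with each library left out. Neighbours in LPA-labelled libraries at 8 h numbered 10, 6 with only the compared groups and 6 to 14 with each left out. At 2 h they numbered 1, 2 with DESeq2, 2 without the 2 libraries and 0 to 1 with each left out. List genes with both agents at 8 h numbered 44, and 21 with only the compared groups. In LPA-labelled libraries they numbered 50 at 8 h, 19 with only the compared groups and 28 to 62 with each left out, and 7 at 2 h, 3 with only the compared groups and 4 to 8 with each left out. Over all genes, the interaction at 8 h was called for 1262, against 3557 with DESeq2, 3094 without a filter, 13 with only the compared groups, 25 without the 2 libraries and 30 to 4203 with each left out, where the lowest was without both-agents replicate 2 and the highest without both-agents replicate 3. With each left out at 8 h, the counts ran from 1051 to 3302 (LPA-labelled against vehicle), 1518 to 3408 (1,25D-labelled against vehicle) and 1943 to 4263 (both against LPA-labelled), the lowest being without LPA-labelled replicate 2, vehicle replicate 2 and LPA-labelled replicate 2 in that order. At 2 h they ran from 69 to 96 against 129 (LPA-labelled against vehicle) and 1487 to 2084 against 2285 (1,25D-labelled against vehicle), and for the 1,25D-labelled effect over time from 449 to 797 against 685. Only the compared groups gave 1287 against 2662 (1,25D-labelled, 8 h), 565 against 1971 (LPA-labelled, 8 h), 1263 against 3765 (both against LPA-labelled, 8 h), 988 against 2758 (both against vehicle, 8 h) and 413 against 2393 (vehicle over time).

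The sign of the Klhl33 vehicle difference over time was -0.045 with protein-coding transcripts. With each library left out, Galnt15 with both agents at 2 h ran from -0.148 to 0.058, and Mfsd2a in LPA-labelled libraries at 2 h from -0.065 to 0.642. Over all groups, replicate numbers showed no pairing (same-number correlations from -0.25 to 0.36, 6 of 24 libraries closest to their own number). On the within-group principal component, replicates 1, 2 and 3 of 8 h scored -14, 41.3 and -27.3 in vehicle. They scored -9.9, 35.1 and -25.2 with both agents, the same order, but 20, -22.1 and 2 labelled LPA. Whether these numbers mark a shared batch was not tested. The replicate block gave 3 calls in place of 4 for 1,25D-labelled at 2 h and for both agents against LPA-labelled at 8 h, and kept the other counts of the 8 genes.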
